A study of Homo sapiens with 6 samples.

Results

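The genes described here are 56 human genes listed by name as KRAB zinc finger genes, and their members on the array were all probe sets that the platform's annotation gives to a single gene of that list. There were 114 such probe sets for 54 of the 56 genes, out of 54613 probe sets of the whole array. ZNF197 and ZNF263 had no probe set of a single symbol. Of the 114, 89 probe sets of 51 genes passed a filter on brightness that kept 27307 probe sets in all, and 29 of these genes had more than 1 kept probe set. The 25 probe sets that did not pass had intensities between 0.477 and 58.8, and ZNF90, ZNF221 and ZNF429 were measured by such probe sets alone. Intensities of the kept members lay between 7.17 and 889 in the deposited units.

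The study used a human kidney cell line, left unnamed in the labels, and 6 one-colour Affymetrix arrays with RNA from it. The mock group (2 arrays) had been transfected with an empty vector, hIMP1 wt (2 arrays) and hIMP1 Dmut (2 arrays) with constructs of those names. hIMP1 is the RNA-binding protein encoded by IGF2BP1, and the labels do not say what Dmut changes. Each group has an array numbered 1 and an array numbered 2. The labels do not say whether a number marks a separate culture. The p-values therefore rest on the spread among the 6 arrays, part or all of which may be technical, and 2 arrays a group limit their precision.

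KRAB zinc finger proteins form a large family of transcriptional repressors. A run of C2H2 zinc fingers reads the DNA sequence, and the KRAB domain recruits the corepressor KAP1, encoded by TRIM28, which brings the histone methyltransferase SETDB1 and heterochromatin protein 1 to the site. Many members bind transposable elements and keep them silent, and most of the genes lie in clusters that grew by tandem duplication, above all on chromosome 19. Neighbouring genes are therefore often alike in sequence, and a probe set for a member of such a cluster may also bind transcripts of its relatives. The array's makers mark this risk by the suffixes _s_at and _x_at, which 17 and 14 of the 89 kept member probe sets carry. Intensities are compared here only within a probe set, never between probe sets.

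The 6 arrays had median intensities between 26.7 and 33.7, with the lowest values in the hIMP1 wt and mock arrays numbered 2 (26.7 and 28.6) and the highest in the hIMP1 Dmut array numbered 2. Ratios of 3′ to 5′ control probe sets were 1.03 to 1.17 for GAPDH, and for ACTB 1.44 to 1.52 in the arrays numbered 1 and 1.57 to 1.67 in those numbered 2. IGF2BP1 was not called between the groups by limma (adjusted p = 1): 1 of its kept probe sets read 188 and 93.2 in mock, 253 and 137 in hIMP1 wt and 248 and 150 in hIMP1 Dmut, for the arrays numbered 1 and 2. Where its probes lie relative to the transfected sequence is not given in the sources used here, so this does not check the labels. That probe set was also lower in the arrays numbered 2, by 0.83 ± 0.16 on the log2 scale (limma, adjusted p = 0.0143). The other kept probe set of IGF2BP1 went the other way, from 231, 226 and 266 in mock, hIMP1 wt and hIMP1 Dmut numbered 1 to 307, 326 and 288 numbered 2 (0.34 ± 0.14, adjusted p = 0.177). Of 11 kidney epithelial marker genes on the array 7 were kept, among them KRT8, KRT18, PAX8 and WT1, while PAX2, LHX1, CDH6 and CDH16 lay below the filter. Summed intensities of the 6 blood cell markers (83.8 to 159), 10 fibroblast and endothelial markers (228 to 373) and 5 hepatocyte markers (69.2 to 127) were lower in the mock and hIMP1 wt arrays numbered 2 than in those numbered 1. In those 3 lists 5 genes were kept, PTPRC, CD14, CDH5 and ALB lay below the filter. The 4 neurofilament markers, of which 2 were kept, went the other way, from sums of 1371 in mock, 1245 in hIMP1 wt and 1257 in hIMP1 Dmut numbered 1 to 1646, 1647 and 1545 numbered 2. All 4 of their kept probe sets were higher there, with a median log2 difference of 0.34, and limma called 1, for NEFL (0.56 ± 0.11, adjusted p = 0.0151). The part of these marker lists in the results below was not tested.

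Between the constructs no member was called, and between the arrays numbered 1 and 2 limma called 8 member probe sets. On the log2 scale, with each probe set centred on its mean over the 6 arrays, the median of the 89 members was 0.11 in mock, 0.03 in hIMP1 wt and 0.15 in hIMP1 Dmut numbered 1. In the arrays numbered 2 it was -0.14 in mock, -0.17 in hIMP1 wt and 0.04 in hIMP1 Dmut. The same medians over all kept probe sets stayed between -0.02 and 0.04. The mock and hIMP1 wt arrays numbered 2 were the 2 lowest of the 6 for 32 of the 89 members (36%). That pattern was found in 28.2% of 570 kept probe sets of other ZNF-numbered genes and in 16.4% of all kept probe sets. The other ZNF-numbered genes were taken by name alone, so KRAB zinc finger genes outside the list, such as ZNF445, are among them. All 3 arrays numbered 1 lay above all 3 numbered 2 for 26 members (29.2%). Of the other ZNF-numbered probe sets 21.9% did so, and of all kept probe sets 14.8%.

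**Figure D1:**
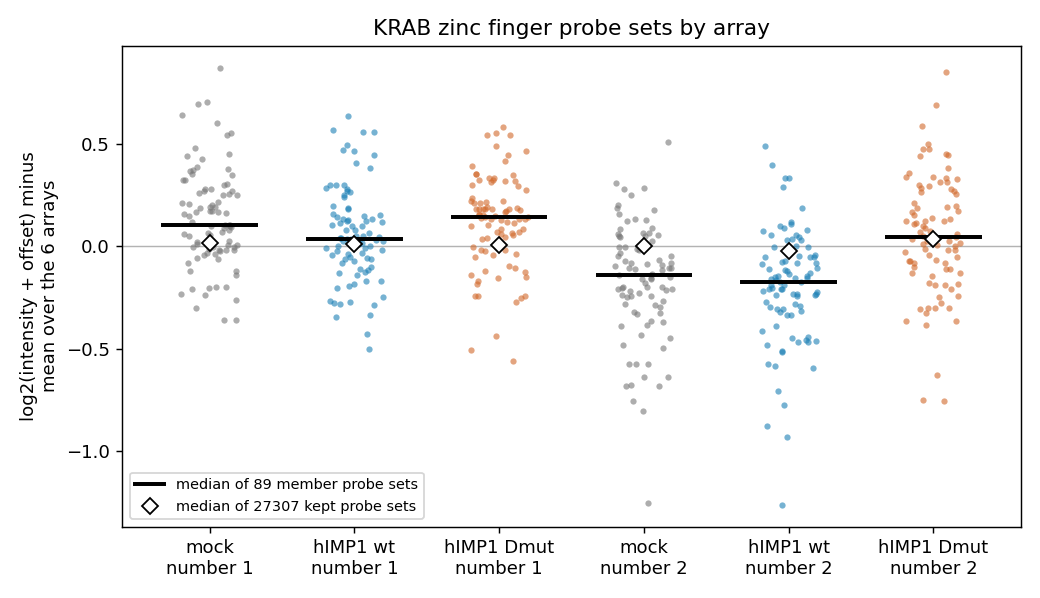
Each point is a member probe set (89 per array), placed at log2(intensity + offset) minus its mean over the 6 arrays, with a bar at the median of the members and a diamond at the median of all 27307 kept probe sets. The bars of mock and hIMP1 wt numbered 2 lie at -0.14 and -0.17, below every other array's bar, while the diamonds stay between -0.02 and 0.04.

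The first comparison the design makes is hIMP1 wt against the empty vector. No member passed the test: limma called 0 of 89 probe sets at an adjusted p under 0.05, with 0 below 0.05 before adjustment, and the lowest unadjusted p was 0.0631. Over all kept probe sets it called 2, or 0.00732%, and 281 were below 0.05 before adjustment. Of the members 36 had a higher and 53 a lower mean with hIMP1 wt, with a median log2 difference of -0.05, against -0.01 over all kept probe sets. Both hIMP1 wt arrays lay above both mock arrays for 6 members (6.74%), where 9.72% of all kept probe sets did so, and below them for 13 (14.6%), where 11.6% did so. The median turned positive without the mock array numbered 1 (0.08) or the hIMP1 wt array numbered 2 (0.07), and was -0.20 without the mock array numbered 2 and -0.16 without the hIMP1 wt array numbered 1.

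Among the members lower with hIMP1 wt, ZNF214 had the largest difference. Its kept probe set read 53.9 and 32.1 in mock, 30.2 and 7.17 in hIMP1 wt and 39.2 and 34.1 in hIMP1 Dmut, for the arrays numbered 1 and 2. The hIMP1 wt array numbered 2 stood far below the other 5, near the dim end of the array. The log2 difference was -1.01 ± 0.48 (SE, 2 arrays a group; limma, adjusted p = 1). Other members whose hIMP1 wt arrays both lay below both mock arrays were ZNF354A, the human relative of the rat kidney gene Kid-1, at -0.30 ± 0.23, and ZNF224, a repressor of the aldolase A gene, at -0.27 ± 0.25. ZNF337 (-0.27 ± 0.26), ZNF85 (-0.25 ± 0.18) and ZNF302 (-0.13 ± 0.18) were further such members. In the higher direction ZNF250 differed by 0.35 ± 0.26, ZNF33B by 0.29 ± 0.24, ZNF222 by 0.19 ± 0.25, ZNF223 by 0.16 ± 0.29 and ZNF212 by 0.13 ± 0.22. None of these differences passed the test, and every adjusted p was 1 (limma).

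hIMP1 Dmut was compared with the empty vector in the same fit, with the same mock arrays. Again limma called 0 of 89 members, against 0.00732% of all kept probe sets (2), and 1 member was below 0.05 before adjustment, against 387 of all kept probe sets. More members were higher (60) than lower (29), with a median log2 difference of 0.11, against 0.01 over all kept probe sets. Both hIMP1 Dmut arrays lay above both mock arrays for 15 members (16.9%; background 12.6%) and below them for 5 (5.62%; background 11%). The shift was not seen in both arrays: the median difference of the members was -0.02 between the arrays numbered 1, with 44 of 89 higher, and 0.21 between those numbered 2, with 62 of 89 higher. Without the mock array numbered 2 the median was -0.04.

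ZNF136 was the member below 0.05 before adjustment. Its probe set read 147 and 113 in mock, 185 and 119 in hIMP1 wt and 240 and 196 in hIMP1 Dmut, for the arrays numbered 1 and 2. The hIMP1 Dmut arrays were the 2 highest of the 6, and within each number mock was lowest. The difference from mock was 0.71 ± 0.28 on the log2 scale (SE, 2 arrays a group), or 1.64-fold, with a limma adjusted p of 1. The next genes were taken among brightest probe sets whose hIMP1 Dmut arrays both lay above both mock arrays. They were ZNF223 (0.32 ± 0.29), ZNF268 (0.30 ± 0.25), ZNF250 (0.24 ± 0.26), ZNF350 (0.24 ± 0.27) and ZNF264 (0.21 ± 0.24). Outside that choice some differences were larger. ZNF92 differed by 0.49 ± 0.31 in its brightest probe set, where the arrays overlapped. Dimmer probe sets of ZNF33B (0.97 ± 0.48) and ZNF230 (0.48 ± 0.32) were further such cases, and none was called. ZNF350 encodes ZBRK1, which represses target genes together with BRCA1, and it read 88.4 and 74.9 in mock, 81.3 and 95.1 in hIMP1 wt and 99.1 and 95.9 in hIMP1 Dmut. ZNF250 and ZNF223 were above mock with both constructs, a count that rests on the same mock arrays. Lower values were found for ZNF235 (-0.45 ± 0.31), ZNF248 (-0.44 ± 0.32), ZNF234 (-0.31 ± 0.26) and ZNF331 (-0.13 ± 0.19), an imprinted gene, none of which passed the test. The other kept probe set of ZNF234 had the opposite sign (0.39 ± 0.39).

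The constructs were also compared with each other. limma called 0 members and 0% of all kept probe sets, and 0 members and 337 of all kept probe sets were below 0.05 before adjustment. Of the members 67 were higher with hIMP1 Dmut than with hIMP1 wt and 22 lower, with a median log2 difference of 0.15, against 0.02 over all kept probe sets. The arrays did not overlap for 21 members in the higher direction (23.6%, background 13.1%) and for 2 in the lower (2.25%, background 8.89%). In kept probe sets of other ZNF-numbered genes these shares were 17.0% and 5.61%. The median was 0.05 between the arrays numbered 1 and 0.21 between those numbered 2, and it was 0.04 without the hIMP1 wt array numbered 2. Setting each array's median equal moved it to 0.05 and the median of all kept probe sets to -0.08. Among the arrays numbered 2, hIMP1 Dmut was the highest of the 3 for 52 of 89 members (58.4%, against 42.9% of all kept probe sets). Among those numbered 1 it was so for 33 (37.1%, against 33.7%). In kept probe sets of other ZNF-numbered genes the shares were 54.4% and 36.3%, for the arrays numbered 2 and 1.

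The largest statistic here belonged to ZNF354A. Its probe set read 344 and 288 in mock, 238 and 270 in hIMP1 wt and 301 and 421 in hIMP1 Dmut, so the hIMP1 wt arrays were the 2 lowest. The difference of hIMP1 Dmut from hIMP1 wt was 0.47 ± 0.23 on the log2 scale (limma, adjusted p = 1). ZNF214 (0.85 ± 0.48), ZNF136 (0.52 ± 0.28), ZNF92 (0.42 ± 0.31), ZNF264 (0.39 ± 0.24) and ZNF85 (0.32 ± 0.18) had positive differences that did not pass the test. The other kept probe set of ZNF85 had the opposite sign (-0.19 ± 0.32). ZNF33B differed by -0.45 ± 0.24 in its brightest probe set and by 0.10 ± 0.48 in its dimmer one. Against mock, the dimmer probe set gave 0.87 ± 0.48 with hIMP1 wt and 0.97 ± 0.48 with hIMP1 Dmut, and the brightest gave 0.29 ± 0.24 and -0.15 ± 0.24. In the dimmer probe set the mock array numbered 2 read 7.34, where the other 5 arrays read between 28.7 and 48.3.

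**Figure D2:**
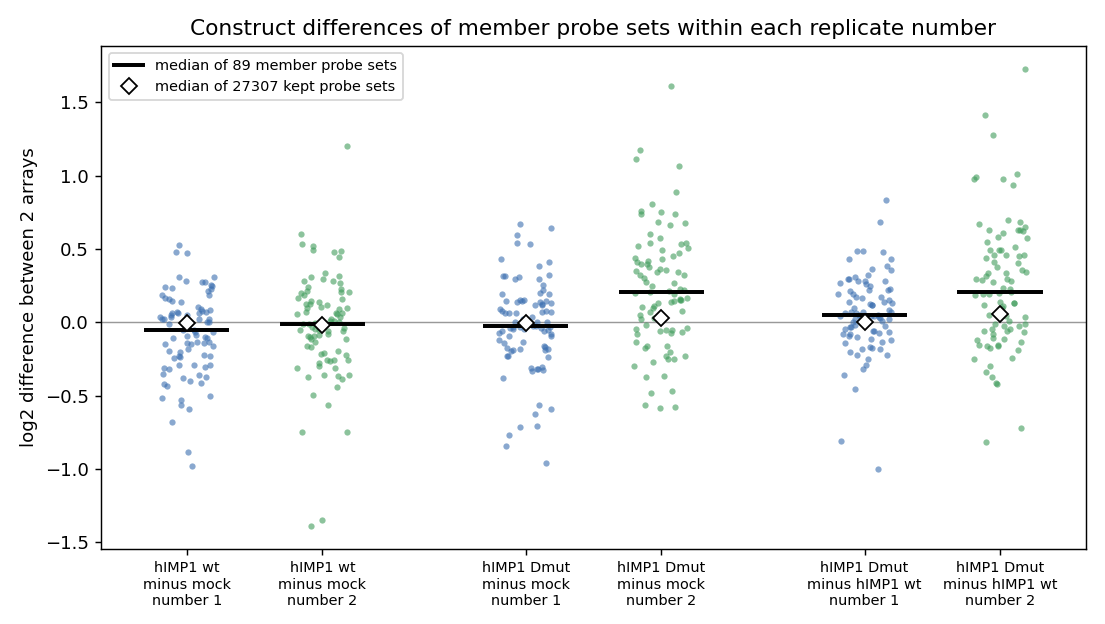
Each point is a member probe set's log2 difference between 2 arrays that share a number, for the 3 construct comparisons, with a bar at the median of the 89 members and a diamond at the median of all 27307 kept probe sets. The bars lie at -0.05 and -0.01 for hIMP1 wt minus mock, -0.02 and 0.21 for hIMP1 Dmut minus mock, and 0.05 and 0.21 for hIMP1 Dmut minus hIMP1 wt, each for numbers 1 and 2.

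The arrays numbered 2 were then compared with those numbered 1, with the group as a term in the fit. limma called 8 probe sets of 6 genes lower in the arrays numbered 2 and 0 higher: ZNF430, ZNF93, ZNF273, ZNF256, ZNF317 and ZNF37A. Over all kept probe sets it called 2.9% lower (791) and 2.81% higher (767), a split that became 539 lower and 1085 higher when each array's median was set equal. Of the members 68 were lower and 21 higher, 28 were below 0.05 before adjustment (6082 of all kept probe sets), and the median log2 difference was -0.20, against -0.01 over all kept probe sets. In all 3 groups alike, 35 members were lower (39.3%, background 22.2%) and 6 higher (6.74%, background 21.2%). In kept probe sets of other ZNF-numbered genes these shares were 31.4% and 16.5%. By gene, 35 of the 51 were lower in every kept probe set, 7 were higher in every kept probe set and 9 had probe sets of both signs.

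The called probe sets of ZNF430, ZNF93 and ZNF273 all carry the suffix _x_at. ZNF430 was called by both of its kept probe sets. The brighter one read 352, 298 and 329 in mock, hIMP1 wt and hIMP1 Dmut numbered 1 and 135, 126 and 201 numbered 2, so every array numbered 1 was above every array numbered 2. It fell by 1.06 ± 0.16 on the log2 scale (SE, 3 arrays a number), or 2.09-fold (limma, adjusted p = 0.00533). The dimmer one read 245, 184 and 146 against 84.4, 63.8 and 130, with the smallest gap in hIMP1 Dmut, and fell by 1.00 ± 0.24 (adjusted p = 0.0335).

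ZNF93, a repressor of L1PA retrotransposons, was measured by its brightest probe set at 341, 350 and 324 in mock, hIMP1 wt and hIMP1 Dmut numbered 1 and at 140, 201 and 229 numbered 2. The arrays numbered 2 kept the order mock, hIMP1 wt, hIMP1 Dmut, while the arrays numbered 1 lay close together. It fell by 0.83 ± 0.16 on the log2 scale (limma, adjusted p = 0.0158). Its second kept probe set was not called at -0.38 and read 146, 110 and 130 against 89.6, 76.9 and 128. ZNF273, whose gene lies on chromosome 7, read 445, 541 and 519.5 by its brightest probe set in the arrays numbered 1 and 315, 349.5 and 362 in those numbered 2. It fell by 0.54 ± 0.12 (adjusted p = 0.0281), without overlap between the numbers, while its other kept probe set differed by -0.06 and was not called.

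ZNF256 read 374, 251 and 299 in mock, hIMP1 wt and hIMP1 Dmut numbered 1 and 149, 181 and 173 in those numbered 2. The gap was widest in mock, and the log2 level fell by 0.83 ± 0.17 (SE, 3 arrays a number; limma, adjusted p = 0.019). ZNF317 was called by both of its probe sets. The dimmer read 307, 358 and 338 against 207, 171 and 137 and fell by 0.94 ± 0.16 (adjusted p = 0.00988). The brighter read 598, 505 and 578 against 412, 387 and 420 and fell by less, 0.45 ± 0.12 (adjusted p = 0.0458). In both, all 3 arrays numbered 1 lay above all 3 numbered 2.

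**Figure D3:**
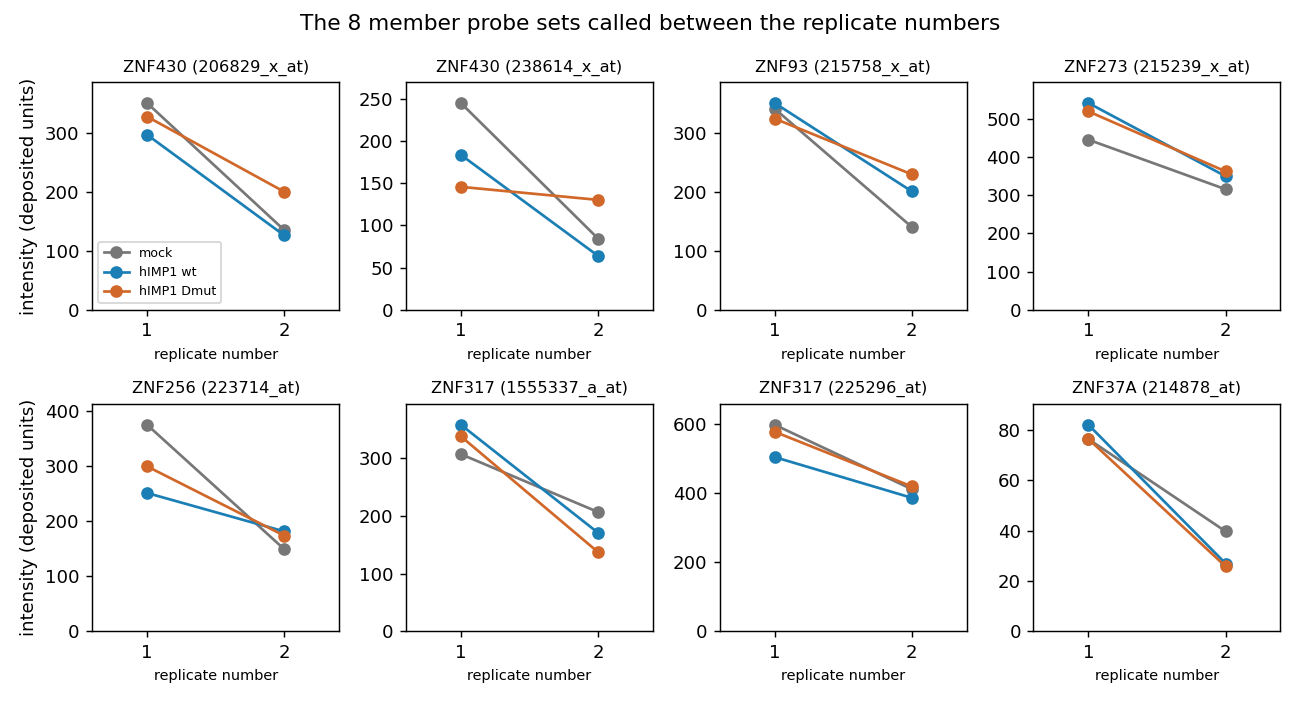
Deposited intensities of the 8 member probe sets called between the numbers, with 1 line per group from the array numbered 1 to the array numbered 2, each panel on its own linear axis from 0. All 24 lines go down, and the hIMP1 Dmut line of the dimmer ZNF430 probe set is the flattest, from 146 to 130.

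The calls of the brighter ZNF430 and the dimmer ZNF317 probe set held in 16 of 17 other settings, including the 6 that leave out an array. Each was lost only without the intensity trend in limma's variance prior, where 0 members and 0 of all kept probe sets were called (adjusted p = 0.165 and 0.167). The other 6 calls were lost in between 3 and 8 settings. Leaving out either mock array or the hIMP1 wt array numbered 2 left 3 calls, and leaving out the hIMP1 wt array numbered 1 left 4. Leaving out the hIMP1 Dmut array numbered 1 gave 20 calls and the one numbered 2 gave 21. With group as a term, an array left without its partner adds nothing to the number difference. Leaving out either array of a group is therefore nearly the same fit, on the arrays of the other groups. The 6 settings that leave out an array are thus not 6 separate checks. Calls over all kept probe sets moved alike: 791 were lower with all 6 arrays, 131 to 325 without a mock or hIMP1 wt array, and 2685 and 2589 without the hIMP1 Dmut array numbered 1 or 2.

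That rise is described here with the 4 mock and hIMP1 wt arrays alone, a fit chosen after the data were seen. It is nearly the same fit as those without a hIMP1 Dmut array, not a further check. limma then called 20 member probe sets of 17 genes lower in the arrays numbered 2, against 9.44% of all kept probe sets (2578 of 27307), and the members' median was -0.30. ZNF92, ZNF91, ZNF254 and ZNF43 joined ZNF430, ZNF93 and ZNF273, as did ZNF140, ZNF268, ZNF184, ZNF420, ZNF382, ZNF320 and ZNF211. ZNF92 by its brightest probe set read 889, 684 and 840 in mock, hIMP1 wt and hIMP1 Dmut numbered 1 and 401, 579 and 850 numbered 2. Its hIMP1 Dmut array numbered 2 was thus back among the arrays numbered 1, and in the 4 arrays the level fell by 0.68 ± 0.14 on the log2 scale (adjusted p = 0.000461). ZNF91, which represses SVA elements, read 287, 327 and 183 against 134, 151 and 314 by its second brightest probe set, and fell by 1.06 ± 0.16 in the 4 arrays (adjusted p = 1.49e-05), while its brightest fell by 0.39 ± 0.13 (adjusted p = 0.0311). ZNF140 read 442, 448 and 376 against 290, 267 and 419 and fell by 0.66 ± 0.14 (adjusted p = 0.000588).

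Within the groups, the median difference of the members between number 2 and number 1 was -0.28 in mock (69 of 89 lower), -0.24 in hIMP1 wt (62 lower) and -0.13 in hIMP1 Dmut (54 lower). Over all kept probe sets the same medians were -0.02, -0.04 and 0.03. Whether the difference is smaller in hIMP1 Dmut was not tested, since 1 array per group and number leaves no spread to test it with. The array medians, lowest in mock and hIMP1 wt numbered 2, move with these values, and setting them equal moved the members' median from -0.20 to -0.12 and that of all kept probe sets from -0.01 to 0.07.

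Sequence features of the called genes were read from the promoter table of RefSeq for build GRCh38.p14, which gives 250 bases before and 50 after each annotated start and holds 63 promoters of 51 of the 56 genes. Promoters of 9 members were alike over their whole length: ZNF43, ZNF85, ZNF90, ZNF91, ZNF92, ZNF93, ZNF254, ZNF273 and ZNF430. All 36 pairs of these aligned at 74.4% to 84.7% identity, where the median over 1930 pairs of members was 47.3%. The 70% limit that sets them apart was chosen after the alignments were seen, and the only other pair above it was ZNF33A with ZNF33B at 78.2%. The promoters of the 3 called genes among them are shown, with that of ZNF91, where the motifs differ. Capitals mark the box CCAAT, the ETS core CCGGAAG and the ZNF143 site start ACTACA on either strand, and each sequence is 300 bases on the gene's strand, 5′ to 3′.
ZNF430 (chr19:21020407-21020706, + strand): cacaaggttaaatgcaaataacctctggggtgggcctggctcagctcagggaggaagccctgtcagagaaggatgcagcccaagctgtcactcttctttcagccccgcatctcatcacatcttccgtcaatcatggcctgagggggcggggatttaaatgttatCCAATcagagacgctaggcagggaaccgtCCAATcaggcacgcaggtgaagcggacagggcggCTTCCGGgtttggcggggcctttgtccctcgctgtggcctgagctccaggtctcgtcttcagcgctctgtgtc
ZNF93 (chr19:19900696-19900995, + strand): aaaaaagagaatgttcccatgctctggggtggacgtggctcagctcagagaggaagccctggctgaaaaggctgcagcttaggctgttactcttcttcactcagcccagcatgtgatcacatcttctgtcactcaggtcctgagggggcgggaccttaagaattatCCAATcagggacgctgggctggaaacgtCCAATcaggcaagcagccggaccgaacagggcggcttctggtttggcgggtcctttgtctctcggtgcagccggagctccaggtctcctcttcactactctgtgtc
ZNF273 (chr7:64903023-64903322, + strand): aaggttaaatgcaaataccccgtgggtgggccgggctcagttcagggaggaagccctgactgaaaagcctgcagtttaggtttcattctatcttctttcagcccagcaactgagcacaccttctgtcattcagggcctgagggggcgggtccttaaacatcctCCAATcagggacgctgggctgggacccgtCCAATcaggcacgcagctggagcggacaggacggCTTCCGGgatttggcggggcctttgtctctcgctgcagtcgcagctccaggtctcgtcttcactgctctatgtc
ZNF91 (chr19:23395422-23395721, - strand): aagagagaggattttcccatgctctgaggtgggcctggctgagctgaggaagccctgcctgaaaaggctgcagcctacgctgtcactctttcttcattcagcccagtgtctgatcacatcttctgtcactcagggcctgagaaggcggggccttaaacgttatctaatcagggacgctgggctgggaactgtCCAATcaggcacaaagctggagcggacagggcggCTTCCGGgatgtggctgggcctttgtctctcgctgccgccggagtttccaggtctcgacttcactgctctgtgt
In ZNF430, ZNF93 and ZNF273 a pair of CCAAT boxes stands shortly before the start, with 29, 28 and 29 bases from the first base of one box to the first base of the next. The ZNF91 promoter holds a single CCAAT in this stretch. For ZNF273 the table has 2 starts, and the other one lacks all 3 of these motifs. The box pair was not confined to the called genes. ZNF43, ZNF85, ZNF90 and ZNF92 also have 2 CCAAT, and ZNF254 has a single one. Of these, ZNF90 lay below the filter and the others were not called between the numbers in the main fit. With the mock and hIMP1 wt arrays alone, ZNF91 was called and ZNF85 was not.

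The promoters of ZNF256 and ZNF317 are shown for contrast, since these genes were called but lie outside the alike promoters.
ZNF256 (chr19:57947657-57947956, - strand): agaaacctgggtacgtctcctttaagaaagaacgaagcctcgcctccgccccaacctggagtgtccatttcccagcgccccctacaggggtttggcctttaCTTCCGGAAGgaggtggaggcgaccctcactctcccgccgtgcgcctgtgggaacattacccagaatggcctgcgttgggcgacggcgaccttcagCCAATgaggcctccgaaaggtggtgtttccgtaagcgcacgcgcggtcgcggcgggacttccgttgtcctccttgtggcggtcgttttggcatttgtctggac
ZNF317 (chr19:9140147-9140446, + strand): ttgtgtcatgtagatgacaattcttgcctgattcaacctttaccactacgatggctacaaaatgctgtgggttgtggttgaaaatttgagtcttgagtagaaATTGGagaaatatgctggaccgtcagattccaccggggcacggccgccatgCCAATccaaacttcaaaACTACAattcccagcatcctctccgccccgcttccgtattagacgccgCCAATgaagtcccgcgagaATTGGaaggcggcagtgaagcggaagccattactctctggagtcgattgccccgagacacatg
They aligned with the 3 promoters of ZNF430, ZNF93 and ZNF273 at 41.6% to 48.3% and with each other at 43.7%. ZNF256 has CCGGAAG motifs that overlap on opposite strands and a single CCAAT, and ZNF317 has CCAAT motifs on both strands and an ACTACA.

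Of 9 motifs searched on both strands, CCAAT, the ETS core and ACTACA had the widest gaps between member promoters and promoters of protein-coding genes of the same length. CCAAT, the box bound by NF-Y, was in 66.7% of the 63 member promoters, 41.6% of those of other ZNF-numbered genes and 34.7% of 22199 promoters of protein-coding genes. At least 2 CCAAT were in 22.2%, 16% and 11.4% of these sets. CCGGAAG, the core of ETS factor sites, was in 34.9%, 34.3% and 12.8%, and ACTACA, the start of the site of ZNF143, in 33.3%, 17.4% and 7.93%. The GC box GGGCGG was in 50.8%, 61.7% and 56.3%, TATAAA in 3.17%, 4.26% and 9.47%, and the E box CACGTG in 1.59%, 5.48% and 8.34%. GCGCATGCG (3.17%, 3.85% and 2.36%), TGACGTCA (1.59%, 3.65% and 2.26%) and AAGATGGCG (1.59%, 2.84% and 2.41%) were rare in all 3 sets. CACGTG and TGACGTCA read the same on both strands, and a GC box can overlap a further GC box. These are matches of letters, duplicated promoters are counted each time, and no binding was measured.

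The genes with alike promoters were set beside the other members; the difference between these sets was not tested. In 18 kept probe sets of 8 of them (ZNF90 was too dim) the median log2 difference of number 2 from number 1 was -0.34, with 16 lower and 4 called. In the 71 probe sets of the other 43 genes it was -0.12, with 52 lower and 4 called. Over all kept probe sets it was -0.01, with 2.9% called lower. With the 4 mock and hIMP1 wt arrays, 7 of the 8 genes were called, ZNF85 being the exception, against 10 of the other 43. A gene counted as called here if any of its probe sets was. Of the 7, ZNF254, ZNF273, ZNF43, ZNF430 and ZNF93 were called by _x_at probe sets alone, as was ZNF320 among the others. In that fit, chosen after the data were seen, 9.44% of all kept probe sets were called lower. The gene counts and this share are in unlike units, since many genes had more than 1 kept probe set. The probe sets of the genes with alike promoters share sequence as well. Of the 18, 9 end in _x_at, with a median of -0.45, and the 9 others had a median of -0.21 and no call. How far the probe sets of this family read each other's transcripts was not tested.

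**Figure D4:**
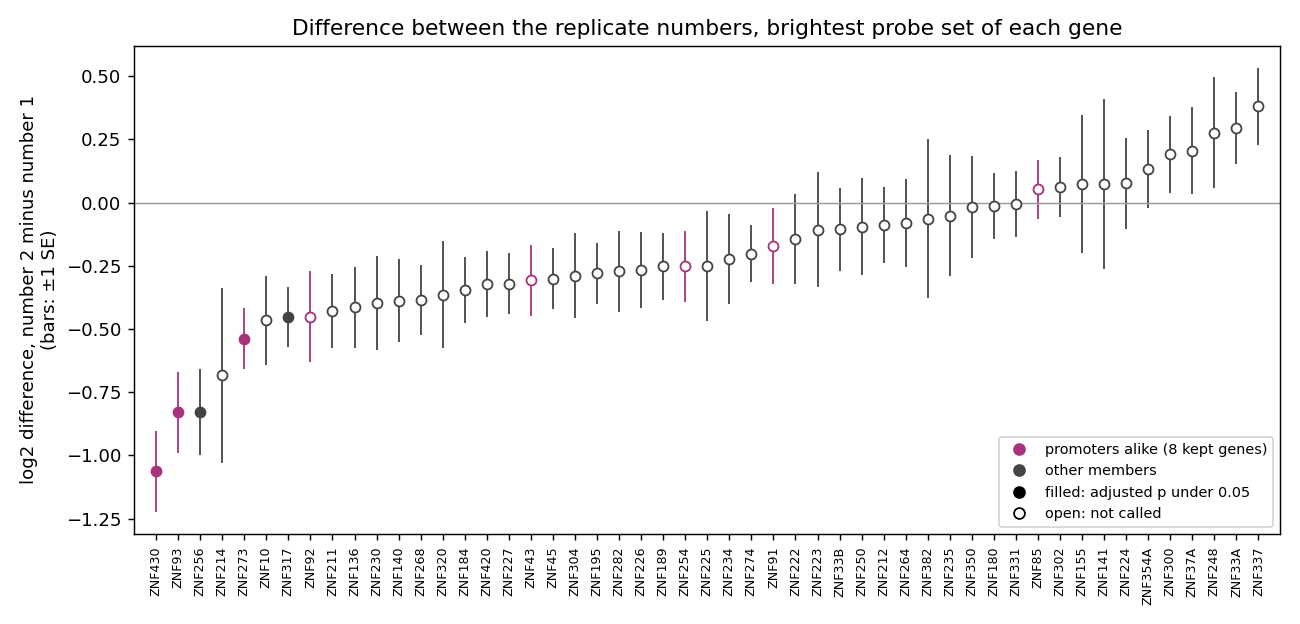
Log2 difference of the arrays numbered 2 from those numbered 1 for the brightest kept probe set of each of 51 member genes, in rising order, with bars of 1 SE, filled points where limma's adjusted p was under 0.05, and colour for the 8 kept genes with alike promoters. Of the 51 genes 40 lie below 0, and 5 are filled, of which 3 belong to the alike promoters.

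Among the brightest probe sets of each gene, ZNF337 had the largest positive difference in the arrays numbered 2, and its other kept probe set was also above 0. The brighter read 240, 205 and 211 in mock, hIMP1 wt and hIMP1 Dmut numbered 1 and 289, 232 and 352 numbered 2, a difference of 0.38 ± 0.15 on the log2 scale (limma, adjusted p = 0.159). The dimmer differed by 0.36 ± 0.14 (adjusted p = 0.161). ZNF33A followed by its brightest probe set with 0.29 ± 0.14 (adjusted p = 0.243), but its dimmer one gave -0.22 ± 0.22. Among genes lower in every group but not called with all 6 arrays, ZNF211 had the largest statistic, at -0.43 ± 0.15 (limma, adjusted p = 0.107). Larger differences without a call included those of ZNF214 (-0.68 ± 0.35) and the brightest ZNF10 probe set (-0.47 ± 0.18).

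Probe sets of 1 gene did not always move together. For ZNF37A, the dimmer probe set read 76.4, 82.0 and 76.4 in mock, hIMP1 wt and hIMP1 Dmut numbered 1 and 39.7, 27.0 and 25.8 numbered 2, and fell by 1.15 ± 0.26 on the log2 scale (limma, adjusted p = 0.0296). The brighter one read 155, 184 and 230 against 210, 257 and 190 and differed by 0.21 ± 0.17 (adjusted p = 0.52). The call of ZNF37A rests on 1 of its 2 probe sets. ZNF226 read 158, 136 and 143 against 219, 188 and 222 by its second brightest probe set (0.50 ± 0.15, adjusted p = 0.0782), and 371, 274 and 389 against 280.5, 299 and 267 by its brightest (-0.27 ± 0.15, adjusted p = 0.321). Among the settings run, the first of these was called only when array medians were set equal (0.58, adjusted p = 0.048). ZNF33A, ZNF33B, ZNF254 and ZNF268 also had probe sets that differed by over 0.5 here. ZNF10, known as KOX1 and the source of the KRAB domain used in engineered repressors, had differences of -0.59 ± 0.22, -0.47 ± 0.18 and 0.15 ± 0.18 in its 3 probe sets, none called. For the construct comparisons, probe sets differing by over 0.5 were found for ZNF33B, ZNF91, ZNF225, ZNF93 and ZNF234 (hIMP1 wt against mock), for ZNF230, ZNF33B, ZNF91, ZNF92, ZNF224 and ZNF234 (hIMP1 Dmut against mock) and for ZNF85, ZNF230, ZNF33B, ZNF224 and ZNF180 (hIMP1 Dmut against hIMP1 wt).

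**Figure D5:**
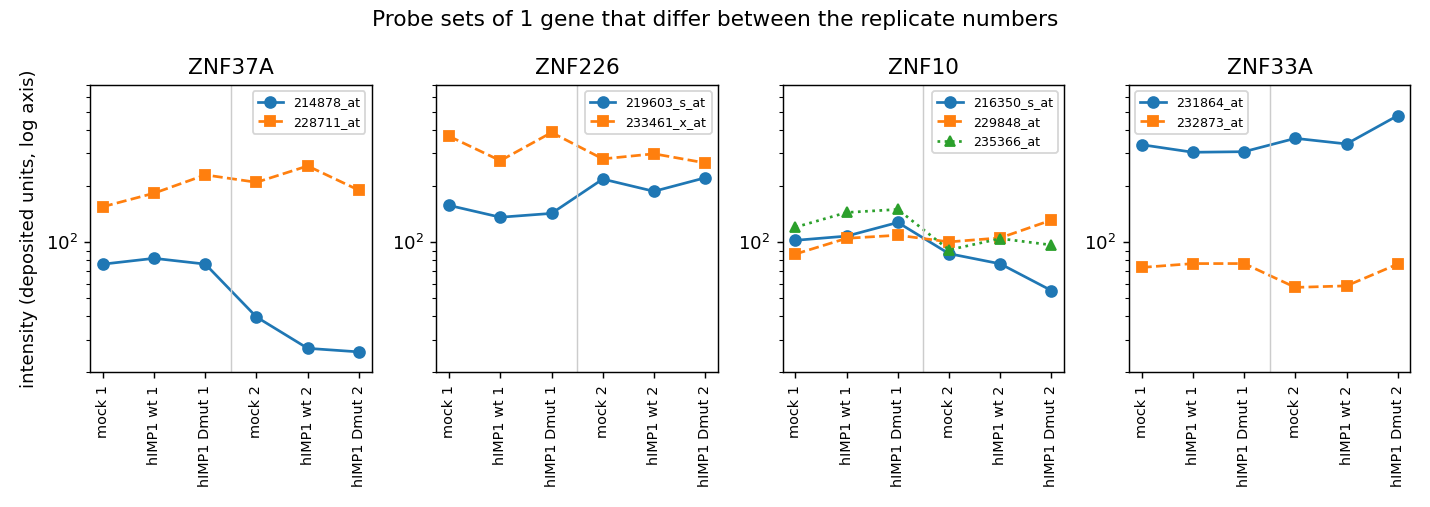
Deposited intensity on a log axis in the 6 arrays for all kept probe sets of ZNF37A, ZNF226, ZNF10 and ZNF33A, with a line per probe set and a vertical line between the arrays numbered 1 and 2. For ZNF37A, the dimmer probe set drops from between 76.4 and 82.0 to between 25.8 and 39.7 while the brighter one lies between 155 and 257 throughout.

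The remaining genes with known targets were measured without a call in the 6-array fit. ZNF274, which binds the 3′ ends of zinc finger genes and recruits SETDB1 there, read 716, 722 and 783 by its brightest probe set in mock, hIMP1 wt and hIMP1 Dmut numbered 1 and 639, 582 and 711 numbered 2 (-0.20 ± 0.11 on the log2 scale). ZNF268 read 369, 409 and 401 against 263, 270 and 373 (-0.39 ± 0.14), and ZNF420, or Apak, an inhibitor of p53, read 520, 417 and 504 against 406, 395 and 345 (-0.32 ± 0.13). This ZNF420 probe set is not the one called with the mock and hIMP1 wt arrays alone. ZNF91 differed by -0.17 ± 0.15 in its brightest probe set, ZNF224 by 0.08 ± 0.18 and ZNF300 by 0.19 ± 0.15. ZNF331 lay between 276 and 316 in all 6 arrays. ZNF382, a gene reported to be silenced in tumours, lay between 96.2 and 245 with its lowest and highest values both in arrays numbered 2 (hIMP1 wt and hIMP1 Dmut).

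Members were also grouped by their order along the chromosomes, as runs of zinc finger genes with at most 2 other genes between neighbours. Of the run from ZNF93 to ZNF254, 6 of 8 members were kept, in 13 probe sets, with a median difference of number 2 from number 1 of -0.31, 11 lower and 3 called. The 5 members from ZNF264 to ZNF274 (ZNF264, ZNF304, ZNF211, ZNF256 and ZNF274) had 7 of 7 probe sets lower, a median of -0.29 and 1 call. The run with the most members, ZNF45 to ZNF180 with 13, had 12 of them kept in 23 probe sets, a median of -0.11, 18 lower and 0 called. ZNF140, ZNF10 and ZNF268 had a median of -0.39 over 7 probe sets with 5 lower, and ZNF248, ZNF33A, ZNF37A and ZNF33B had -0.11 with 4 of 7 lower. ZNF350, ZNF320 and ZNF331 had -0.02 with 4 of 5 lower. No member of any of these runs was called in a construct comparison. Between the numbers, the median over all kept probe sets was -0.01, with 51.8% lower and 2.9% called lower.

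Other zinc finger genes, with KRAB genes outside the list among them, were measured alongside. Over 570 kept probe sets of 341 other ZNF-numbered genes, the median difference of number 2 from number 1 was -0.12, with 374 lower, 36 called lower and 14 called higher. Of all kept probe sets 2.9% were called lower and 2.81% higher. The medians of the 570 in the construct comparisons were -0.01 for hIMP1 wt and 0.07 for hIMP1 Dmut against mock, and 0.09 for hIMP1 Dmut against hIMP1 wt. Zinc finger genes of other families lay near 0 between the numbers: 53 probe sets of BTB zinc finger genes had a median of -0.03 and 46 of KLF and SP genes -0.04. ZBTB10 (-0.77 ± 0.12, adjusted p = 0.00782) was called lower and BCL6 (0.74 ± 0.17, adjusted p = 0.0328) higher by limma. The ZBTB10 call was on an _x_at probe set, and its brightest probe set was not called.

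The partners of KRAB proteins had medians near 0 between the numbers. The KAP1 list (TRIM28, SETDB1, the heterochromatin proteins, their cofactors and ZNF445) had 11 genes in 24 kept probe sets. These had a median of 0.01, with 12 lower and 12 higher. limma called ZNF445 (-0.61 ± 0.16) and MORC3 (-0.53 ± 0.14) lower, each with an adjusted p of 0.0468. The ZNF445 call was on an _x_at probe set that was not its brightest. ZNF445 is itself a KRAB zinc finger gene, outside the members described here, so its call is not that of a partner. The HUSH list had 5 genes in 16 probe sets, a median of -0.05 and a single call, ZNF638 (-0.70 ± 0.13, adjusted p = 0.0133). That call rests on 1 of 5 kept ZNF638 probe sets, the others lying between -0.08 and 0.26. The NuRD and histone deacetylase list (13 genes, 31 probe sets) had a median of 0.02 and the list of H3K9 and DNA methylation genes (13 genes, 27 probe sets) -0.02, both with 0 calls by limma. Of 10 retroelement-derived genes 2 were kept, PEG10 and ERVMER34-1, with differences of 0.27 ± 0.12 and 0.16 ± 0.31, neither called. In the construct comparisons no gene of these lists was called. For hIMP1 Dmut minus hIMP1 wt the list of H3K9 and DNA methylation genes had a median of 0.15 with 19 of 27 probe sets higher, the same median as the members, and the KAP1, HUSH and NuRD lists had -0.01, 0.01 and 0.03. TRIM28 differed from mock by -0.13 ± 0.17 with hIMP1 Dmut, MORC2 by 0.44 ± 0.18 with hIMP1 wt, and CHD4 by -0.50 ± 0.20 with hIMP1 Dmut, each with an adjusted p of 1 (limma).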

How the data were processed

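Gene expression was measured on 6 arrays, and the deposited intensities are the authors' probe set values on a linear scale. The software that made them is not given in the sources used here. Each array has the same trimmed mean once 2% of the values are left out at each end, and no further scaling was applied. Array number, not read depth, limits precision.

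The array's control probe sets were not used. Intensities were taken as log2(intensity + 9.04), the offset being the lower quartile of all values, and probe sets were kept where their mean reached 5.19, the median of the means. limma 3.58.1 in R 4.3.3 was fitted to all 6 arrays with an intensity trend in the variance prior, for the 3 construct comparisons and, with group as a term, for number 2 minus number 1. Tests were two-sided, p-values were adjusted by Benjamini-Hochberg over all kept probe sets, and calls needed an adjusted p under 0.05. Lists and members are described by counts and medians without a test. Promoters were aligned with Biopython 1.88.

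Named were the brightest kept probe set per gene, every call, up to 6 genes per direction with the largest statistics among those whose arrays did not overlap, genes whose kept probe sets differed by over 0.5, genes of known function, and up to 3 genes per list. Members and lists were chosen with earlier results of these data known. Scaling, offset, filter, variance prior, probe set choice, replicate block and arrays left out were varied. Probe sets with several gene symbols were left out.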

Additional observations from a re-analysis of the deposited data

Results flagged for a closer look

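A construct difference of the members was seen between the arrays of 1 number only. For hIMP1 Dmut minus mock, the median log2 difference of the 89 member probe sets was -0.024 between the arrays numbered 1, with 44 higher. Between those numbered 2 it was 0.21. Over all kept probe sets the medians were -0.004 and 0.03. The difference between the members' 2 values was not tested, since each rests on 1 array a group.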

How the results depend on the processing

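In the 3 construct comparisons 0 members were called under every alternative run. With the replicate number as a replicate block, 0 members were called in each, with 1, 3 and 4 below 0.05 before adjustment. Without a replicate block 8 were called between the numbers. The main construct fits had no term for the number, so their spread includes the difference between the numbers. Arrays of 1 number correlated by 0.970 to 0.980, and the 2 arrays of a group by 0.963 to 0.964. Number differences correlated across probe sets by 0.46, 0.20 and 0.22 between the groups. Still, 2 numbers are too few to show that they pair the arrays. The median for hIMP1 wt minus mock was -0.00297 with array medians set equal (0.03 over all kept probe sets) and ran from -0.197 to 0.0847 with single arrays left out. Between the numbers, the median was -0.12 with array medians set equal (0.07 over all kept probe sets), -0.30 with only the mock and hIMP1 wt arrays (chosen after seeing the data), and -0.30 to -0.14 with single arrays left out. Leaving out either hIMP1 Dmut array is nearly the same fit as using only the mock and hIMP1 wt arrays. Between the numbers 8 member probe sets were called, and other settings gave 4 calls without the brightness filter, 0 without the intensity trend, 5 with 1 probe set per gene, 4 without _s_at and _x_at probe sets, 20 with only the mock and hIMP1 wt arrays, and 3 to 21 with single arrays left out. ZNF33B changed sign: its brightest probe set, for hIMP1 Dmut minus mock, ran from -0.337 to 0.0278 with single arrays left out, and its dimmer one, for hIMP1 Dmut minus hIMP1 wt, was -0.00734 with quantile scaling, -0.00589 with cyclic loess scaling and -0.20 to 0.11 with single arrays left out; the cause was not tested. Of 919 values of named genes under an alternative, 871 kept direction and call, 34 lost the call, 10 gained one and 4 changed sign.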
